A study of Danio rerio with 6 samples.

Results

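Immediate early genes were examined in whole zebrafish embryos exposed to perfluorobutane sulfonamide (FBSA), a short-chain perfluorinated compound. The set was a list of 40 named genes, found in the deposited table through a zebrafish table of gene names, ignoring case and accepting a capital stem without its paralogue suffix. By this rule 36 of the 40 had a row, in 37 gene rows of 24462 in all, because the symbol ZFP36L1 belongs to 2 identifiers that both count for zfp36l1a. Of the 37 rows, 27 matched by the symbol itself and 10 by the capital stem, among them FOS for fosab, FOSL1 for fosl1a, EGR2 for egr2b, KLF6 for klf6a, NPAS4 for npas4a and CCN2 for ccn2a. The 2 rows with the symbol JUNB stand for junba and junbb, and which is which was not given by the table. The genes klf4, klf10, arc and zfp36 were not analysed here.

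Both groups were embryos of the wild-type line Tropical 5D, freed of their chorions at 4 h after fertilization and kept in medium with 0.5% methanol from 8 h until they were harvested at 48 h. The FBSA group had 47 µM FBSA and the control group 0 µM. Each group had 3 libraries of 3′ RNA sequencing, and each library was made from a pool of 10 whole embryos. The comparison addressed how the exposure altered transcript levels, and RNA was taken at a single time at the end of the exposure.

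Immediate early genes are transcribed within minutes of a stimulus, without the synthesis of new proteins, because the factors that start them (serum response factor with its ETS partners, and CREB) are already in place and are switched on by phosphorylation through MAP kinases and other pathways. Many of them encode transcription factors, such as the Fos and Jun proteins that pair as the AP-1 factor and the EGR zinc finger proteins. Others encode proteins that end the response, such as phosphatases of MAP kinases and proteins that speed the decay of mRNA. In embryos they also act in development, for instance in hindbrain patterning, in the shaping of growth factor gradients and in the response of vessels to blood flow.

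Of the 16890 genes of the whole table with at least 10 normalized counts in 3 or more libraries, 36 were rows of this set. A normalized count is a library's number of reads in a gene divided by that library's size factor. BTG2 rose with FBSA, 0 rows fell and 35 did not pass the test (limma, Benjamini-Hochberg adjusted p under 0.05 over all 16890 genes). Over all genes tested, 0.568% were called higher and 0.136% lower. At an unadjusted p under 0.05, 13 of the 36 rows were higher and 0 lower, against 7.34% of all genes higher and 6.25% lower. The log2 fold change, on the scale of log2(normalized count + 1), was positive in 31 of the 36 rows and in 49.8% of all genes tested; EGR2, at 0.002, was the positive row closest to 0 and turned negative under other scalings. Its median was 0.47 over the 36 rows and −0.0009 over all genes tested. In 10 of the 36 rows all 3 FBSA libraries lay above all 3 controls, and in 0 they lay below, where 10.0% of all genes tested lay above in this way and 9.91% below. FOSB, the row that did not enter the test, had 10 or more normalized counts in only 2 libraries, with 38.6 in control replicate 3 and 31.5 in FBSA replicate 3 against 0 to 9.49 in the other libraries. In whole embryos, fewer cells of a type and less RNA per cell cannot be told apart, and this holds for every value that follows.

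**Figure D1:**
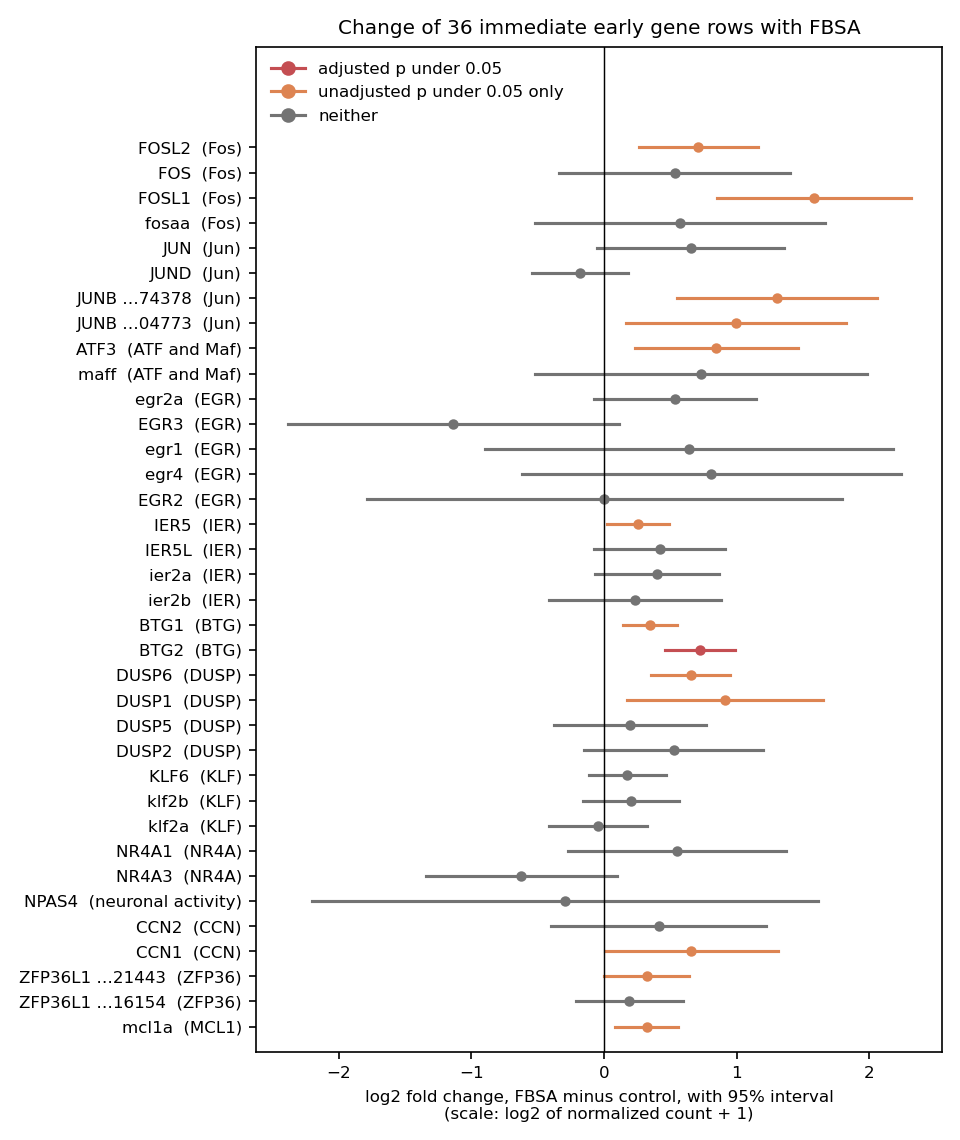
Log2 fold change (x axis, FBSA minus control, on the scale of log2 of the normalized count + 1) of the 36 tested rows, grouped by role on the y axis, with points for the estimate and lines for the 95% interval from limma. BTG2 is the row past the adjusted threshold, 31 of the 36 estimates lie to the right of 0, and the widest intervals are those of NPAS4 and EGR2.

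The libraries held 23906021 to 33356411 reads in genes, and 20293 to 21367 genes had a read. A principal component analysis of all genes tested set the 2 libraries numbered 2 farthest apart, with a score of 53.95 for the FBSA library and −65.53 for the control on a component that held 34.3% of the variance. Control replicates 1 and 3 were at −2.53 and −13.42, and FBSA replicates 1 and 3 at 25.02 and 2.51. The component thus also ordered the libraries by group, and leaving out its extremes removes part of the contrast between the groups. The names in the table's header stand 1 cell to the left of their values, so control replicate 3 would carry an FBSA name if the header were read without that shift. Where leaving out both libraries numbered 2 moved a log2 fold change by over 1.5 times or turned its sign, the value without them is given below. These libraries stood out on a component drawn from the same data. Where control replicate 2 is the lowest control and FBSA replicate 2 the highest FBSA library, leaving both out must lower the log2 fold change. Such a fall is therefore a description and no separate test. On the second component, with 20.47% of the variance, FBSA replicate 1 stood apart, at 59.67 against −29.92 to 0.9 in the other libraries. Markers of the whole embryo's tissues were present. Both rows of the skeletal muscle actin gene ACTA1 fell among 6 muscle markers, nppa rose among 5 tested heart markers and cldne among 6 epidermis markers. Of 7 neuron, 5 leukocyte, 5 endothelium, 6 erythroid and 5 lens markers 0 passed the test (limma, adjusted p under 0.05), with 0, 0, 0, 0 and 1 higher and 5, 1, 0, 1 and 0 lower at an unadjusted p under 0.05. At that level 0, 2 and 3 of the muscle, heart and epidermis markers were higher and 3, 0 and 0 lower. Over all genes tested, 7.34% were higher and 6.25% lower at that level.

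BTG2 and BTG1 encode antiproliferative proteins that bind the CCR4-NOT deadenylase, and BTG2 is a target of p53 in mammals. BTG2 had 2919, 3057 and 2774 normalized counts in control replicates 1, 2 and 3 and 4149.6, 5718 and 4709 in FBSA replicates 1, 2 and 3. The controls differed by little and every FBSA library lay well above them. The mean went from 2917 ± 141 to 4859 ± 795 (SD, n = 3 each). The fitted log2 fold change was 0.72 ± 0.12 SE (95% interval 0.46 to 0.99; limma adjusted p = 0.0167), which is 1.65-fold, and folds here are taken from the fitted log2 value throughout. The call was lost when control replicate 3 was left out (limma adjusted p = 0.0746), and likewise for FBSA replicate 2 (0.057) or FBSA replicate 3 (0.0522), while the log2 fold change stayed between 0.60 and 0.83 over all alternatives. BTG1, the most counted gene of the set, had 23519.5, 27129.7 and 24391 normalized counts in control and 29950.1, 33416 and 31915 with FBSA. All 3 FBSA libraries lay above the controls, at 1.27-fold (log2 fold change 0.35 ± 0.09 SE, limma adjusted p = 0.141), and this row passed only with both libraries numbered 2 left out (limma adjusted p = 0.0465).

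The dual-specificity phosphatases remove phosphate from MAP kinases. DUSP6, which acts on ERK in the cytoplasm and limits FGF signalling in the zebrafish embryo, had 1459.7, 1209 and 1599 normalized counts in control and 1966, 2544 and 2189 with FBSA. Its groups did not overlap, and the log2 fold change was 0.65 ± 0.14 SE (1.57-fold; 95% interval 0.36 to 0.95), just outside the threshold with a limma adjusted p of 0.0543. DUSP6 passed with a pseudocount of 5, without a filter, on the deposited log2 values and with robust moderation, where the limma adjusted p ran from 0.0337 to 0.0469. Without FBSA replicate 2 its adjusted p was 0.236. DUSP1, a nuclear phosphatase of stress-activated kinases, had 569, 208 and 528 normalized counts in control and 599, 1128 and 618 with FBSA. Control replicate 2 was far below and FBSA replicate 2 far above the other 4 libraries, which spanned 528 to 618. The log2 fold change of DUSP1 was 0.91 ± 0.34 SE (limma adjusted p = 0.268), and 0.15 ± 0.14 SE with both libraries numbered 2 left out. DUSP2 (log2 fold change 0.52, or 0.24 without the libraries numbered 2) and DUSP5 (0.19, or 0.44 without them), other nuclear members, ran from 49.8 to 107 and from 86.4 to 150.4 normalized counts with overlapping groups.

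**Figure D2:**
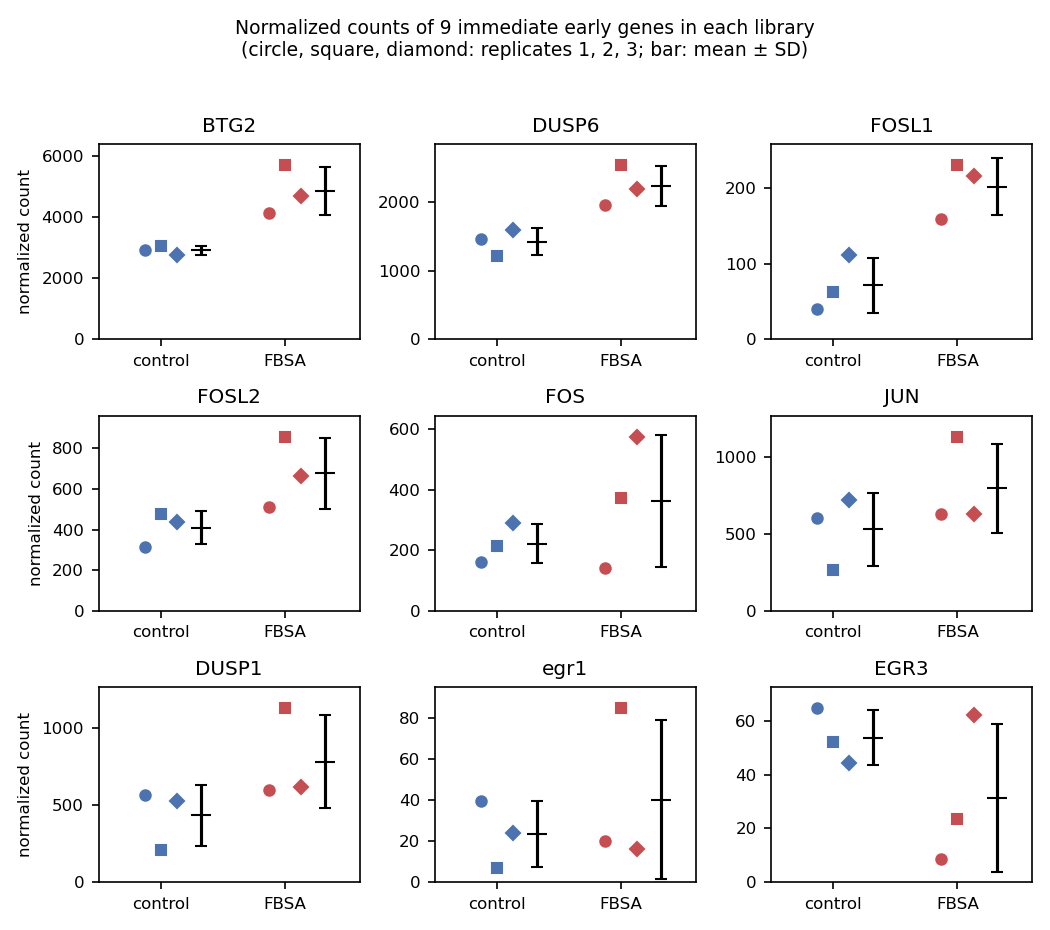
Normalized counts (y axis, starting at 0) of 9 genes in the 3 control and 3 FBSA libraries (x axis), with circles, squares and diamonds for replicates 1, 2 and 3 and a bar for the mean ± SD. BTG2, DUSP6, FOSL1 and FOSL2 have every FBSA library above every control, JUN and egr1 are set apart mainly by the squares, and FOS is highest in FBSA replicate 3.

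Fos proteins pair with Jun proteins through a leucine zipper and bind DNA as AP-1. FOSL1, the gene of the Fos-related antigen FRA-1, had the largest log2 fold change of the tested rows. It had 40.2, 62.9 and 111 normalized counts in control and 158, 229.98 and 215 with FBSA, with no overlap between the groups. The mean went from 71.5 ± 36.3 to 201 ± 37.8 (SD, n = 3 each), at a log2 fold change of 1.58 ± 0.34 SE (95% interval 0.85 to 2.31; limma adjusted p = 0.059). FOSL1 passed without control replicate 3, its highest control (limma adjusted p = 0.0183), and with robust moderation, limma-voom or the deposited log2 values (adjusted p from 0.0386 to 0.0477). Leaving out the highest control must raise the log2 fold change. The limma adjusted p of FOSL1 was 0.249 without FBSA replicate 2, its highest FBSA library, and 0.175 without both libraries numbered 2. FOSL2, which encodes FRA-2, had 316, 476 and 438 normalized counts in control and 509, 857 and 666 with FBSA. These groups did not overlap either (log2 fold change 0.71 ± 0.21 SE, limma adjusted p = 0.169).

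The gene of the founding Fos protein varied widely between libraries of 1 group. FOS had 162, 212 and 288 normalized counts in control and 140.3, 373 and 574 with FBSA. FBSA replicate 1 held the lowest value of the 6 and FBSA replicate 3 the highest, so the groups overlapped (log2 fold change 0.53 ± 0.40 SE, limma adjusted p = 0.594). Its paralogue fosaa had 14.3 to 26.1 normalized counts in control and 17.8 to 44.7 with FBSA, and the highest value was again in FBSA replicate 3. FOSB, which was not tested, was high in both libraries numbered 3 and low or at 0 in the others.

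Jun proteins form AP-1 with Fos proteins or with each other. The JUNB row ENSDARG00000074378 had 62.9, 33.2 and 56.8 normalized counts in control and 99.6, 189 and 98.6 with FBSA, apart in all libraries (log2 fold change 1.30 ± 0.35 SE, limma adjusted p = 0.134; 0.72 ± 0.31 SE without both libraries numbered 2). The other JUNB row, ENSDARG00000104773, had 57.9, 42.7 and 59.1 in control and 57.1, 176 and 118 with FBSA. FBSA replicate 1 lay within the controls there (log2 fold change 1.00 ± 0.38 SE, limma adjusted p = 0.277; 0.48 ± 0.39 SE without both libraries numbered 2). How reads that match both JUNB genes were counted was not checked, so the separate values of the 2 rows are uncertain. JUN had 602, 266 and 720.03 normalized counts in control and 628, 1133 and 632 with FBSA. Apart from the 2 libraries numbered 2, its values lay between 602 and 720.03, and the log2 fold change went from 0.65 ± 0.32 SE over all libraries (limma adjusted p = 0.403) to −0.06 ± 0.15 SE without them. JUND, the family member that is usually the least responsive to stimuli, had 397 to 623 normalized counts over all libraries (log2 fold change −0.18 ± 0.17 SE; 95% interval −0.54 to 0.18; 0.05 ± 0.15 SE without the libraries numbered 2).

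ATF3 is a stress-induced partner of Jun that can repress its targets, and maff encodes a small Maf protein without an activation domain. ATF3 had 169, 217 and 299.8 normalized counts in control and 249, 528 and 488 with FBSA. FBSA replicate 1 lay inside the control range and the other 2 FBSA libraries above it (0.85 ± 0.28 SE on the log2 scale, with a limma adjusted p of 0.217). The values of maff were 219.7, 35.6 and 98.8 in control and 154, 303 and 77.2 with FBSA, one of the widest spreads in the set. Its log2 fold change was 0.73 ± 0.58 SE with all libraries and −0.43 ± 0.39 SE with both libraries numbered 2 left out.

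The EGR genes encode zinc finger factors, of which egr2b patterns the hindbrain. None of the 5 passed, and all 5 had groups that overlapped. The most counted, egr2a, had 123, 119.8 and 71.5 normalized counts in control and 187, 114 and 152 with FBSA (log2 fold change 0.53 ± 0.28 SE, limma adjusted p = 0.437; 0.84 ± 0.30 SE without the libraries numbered 2). For egr1, the member most used as an activity marker, the counts were 39.4, 7.12 and 23.8 in control and 19.9, 84.5 and 16.3 with FBSA. Only FBSA replicate 2 exceeded the controls, and without both libraries numbered 2 the log2 fold change of egr1 was −0.74 ± 0.57 SE in place of 0.64 ± 0.71 SE. EGR3 was the row with the lowest log2 fold change of the 36, with 64.6, 52.2 and 44.3 normalized counts in control and 8.66, 23.5 and 62.0 with FBSA. FBSA replicate 3 lay within the controls and the other 2 below them (log2 fold change −1.14 ± 0.58 SE; 95% interval −2.39 to 0.11; limma adjusted p = 0.416). EGR2 and egr4 were counted at 3.75 to 21.8 and 7.55 to 69.1. The log2 fold change of EGR2 was 0.28 ± 0.89 SE without the libraries numbered 2. Its 95% interval over all libraries ran from −1.79 to 1.80, so changes of over 2-fold in either direction were not excluded.

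IER2 and IER5 are small nuclear proteins named for their early response. IER5 had 2155, 2232 and 2304 normalized counts in control and 2428, 2679 and 2899 with FBSA, a small shift with no overlap (1.19-fold; log2 fold change 0.26 ± 0.11 SE, limma adjusted p = 0.317). Its paralogue IER5L had 1081, 593 and 1103 in control and 1116, 1534 and 991 with FBSA, and its log2 fold change was −0.05 ± 0.12 SE without the libraries numbered 2, against 0.42 ± 0.23 SE with them. The pair ier2a and ier2b shared the FBSA order of FOS, with the highest value in FBSA replicate 3 and the lowest in FBSA replicate 1. The counts of ier2a were 469.5, 644 and 577 in control and 512, 792 and 987 with FBSA (log2 fold change 0.40 ± 0.22 SE), and ier2b had a log2 fold change of 0.23 ± 0.30 SE, or 0.07 ± 0.35 SE without the libraries numbered 2.

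KLF2 and KLF6 are zinc finger factors, and klf2a answers to blood flow in zebrafish endothelium. None of the 3 analysed KLF rows passed, and all had groups that overlapped. KLF6 had 2483, 2811 and 2690.45 normalized counts in control and 2742, 3721 and 2643 with FBSA (log2 fold change 0.17 ± 0.13 SE, or 0.06 ± 0.10 SE without the libraries numbered 2). The 6 libraries held 270.3 to 340.4 of klf2a, whose log2 fold change was −0.05 with a 95% interval from −0.42 to 0.32, and 403 to 586 of klf2b (log2 fold change 0.20). Without the libraries numbered 2 these log2 fold changes were 0.095 for klf2a and 0.12 for klf2b. The 5 endothelium markers, whose summed level was 1078 to 1169.6 normalized counts in control and 1108 to 1187 with FBSA, had a median log2 fold change of −0.02.

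NR4A genes encode orphan nuclear receptors that are induced by cyclic AMP and by neuronal activity, and NPAS4 is a neuronal factor that depends on calcium entry. NR4A1 had 288, 90.1 and 249.9 normalized counts in control and 333, 330.4 and 185 with FBSA (log2 fold change 0.55 ± 0.38 SE with all libraries, −0.11 ± 0.26 SE without those numbered 2). NR4A3 had 83.8, 96.1 and 101 in control and 84.8, 36.6 and 70.1 with FBSA (log2 fold change −0.62 ± 0.33 SE, limma adjusted p = 0.441; −0.25 ± 0.31 SE without the libraries numbered 2). The lowest library for NR4A3 was FBSA replicate 2, where JUN and DUSP1 were highest. NPAS4 was rare, with 12.6, 11.9 and 5.68 normalized counts in control and 1.73, 8.45 and 23.4 with FBSA, and its arithmetic means (10.0 and 11.2) and its log2 fold change (−0.30 ± 0.88 SE) differ in sign. Beside these values, 6 of the 7 rows of neuron markers had a negative log2 fold change, with a median of −0.37. Over all genes tested, 49.8% had a positive one. The other row was ELAVL3, the most counted of the 7, with means of 12408 in control and 12510 with FBSA (log2 fold change 0.01). The summed level of the 7 rows was 24416 to 26938 normalized counts in control and 21067 to 23494 with FBSA, lowest in FBSA replicate 2, and none of the markers was at 0. The part of neuron content in the values of NR4A3, EGR3 and NPAS4 was not tested.

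CCN1 and CCN2 encode secreted matrix proteins and are widely used as targets of YAP. CCN1 had 195, 191 and 339.6 normalized counts in control and 223, 451 and 493 with FBSA, with an overlap between FBSA replicate 1 and control replicate 3 (log2 fold change 0.66 ± 0.30 SE, limma adjusted p = 0.365; 0.37 ± 0.33 SE without the libraries numbered 2). CCN2 had 658, 251 and 449 in control and 577, 960 and 316 with FBSA. Its log2 fold change was 0.41 ± 0.37 SE with all libraries and −0.35 ± 0.26 SE without those numbered 2.

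ZFP36L1 binds AU-rich elements and speeds the decay of mRNAs, and mcl1a encodes a relative of BCL2 that protects cells from apoptosis. The ZFP36L1 row ENSDARG00000021443 had 492, 412 and 508 normalized counts in control and 536, 592 and 635 with FBSA (log2 fold change 0.32 ± 0.15 SE, limma adjusted p = 0.365), and the row ENSDARG00000016154 had a log2 fold change of 0.19 ± 0.19 SE with overlapping groups, or 0.35 ± 0.19 SE without the libraries numbered 2. One of these may be the paralogue zfp36l1b, and reads shared between them were not checked. For mcl1a the counts were 1795, 1905 and 2021.5 in control and 2235, 2589.9 and 2325 with FBSA. All FBSA libraries of mcl1a lay above all controls, and the log2 fold change was 0.32 ± 0.11 SE (1.25-fold, limma adjusted p = 0.221).

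**Figure D3:**
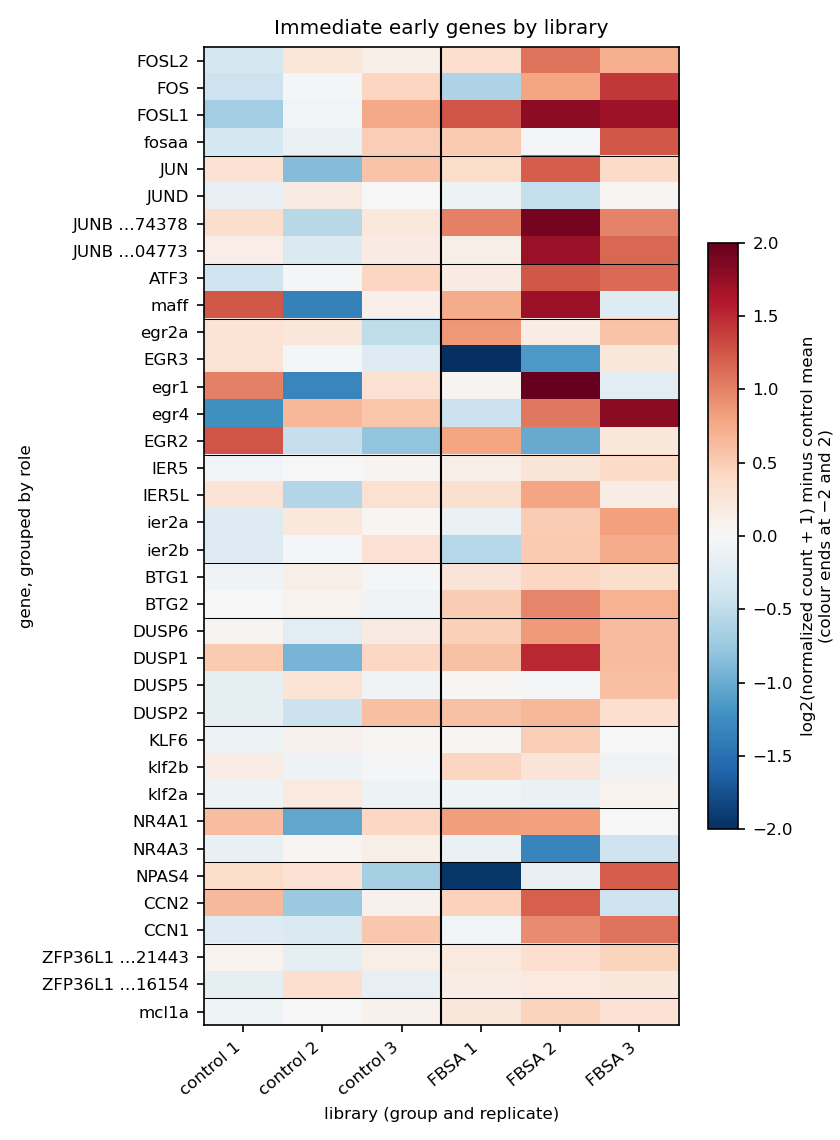
Each cell shows log2(normalized count + 1) of a gene (y axis, grouped by role) in a library (x axis) minus the gene's control mean, with red above and blue below and the colour scale ending at −2 and 2. FBSA replicates 2 and 3 are mostly red, FBSA replicate 1 is at or below the control mean for FOS, ier2b and CCN1, and control replicate 2 is blue for JUN, DUSP1, maff, egr1, NR4A1 and CCN2.

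The rows of the set differed in which library was highest and which was lowest, and their agreement across libraries was not tested. Averaged over the 36 tested rows, log2(normalized count + 1) minus the control mean was 0.06, −0.19 and 0.13 in control replicates 1, 2 and 3 and 0.14, 0.60 and 0.52 in FBSA replicates 1, 2 and 3. The same average over all genes tested lay between −0.05 and 0.03 in every library. The median over the rows was −0.07, −0.03 and 0.11 in the controls and 0.21, 0.59 and 0.41 in FBSA replicates 1, 2 and 3. By both measures FBSA replicate 1 was the FBSA library closest to the controls. FBSA replicate 2 was the highest of the 6 libraries for 17 of the 36 rows (47.2%, against 21.7% of all genes tested), and FBSA replicate 3 for 10 (27.8%, against 13.4%). Control replicate 2 was the lowest for 14 rows (38.9%, against 23.9%) and control replicate 1 for 12 (33.3%, against 15.6%).

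Sets of rows with like profiles could be described, chosen after their values were seen and therefore without a test. In 10 of the 36 rows control replicate 2 was the lowest control and FBSA replicate 2 the highest FBSA library, against 16.5% of all genes tested. These were JUN, both JUNB rows, maff, egr1, IER5L, DUSP1, DUSP2, DUSP6 and CCN2. In these rows, leaving out both libraries numbered 2 must lower the log2 fold change. In 6 others control replicate 3 was the highest control and FBSA replicate 3 the highest FBSA library, against 9.71% of all genes tested. These were fosaa, FOS, ier2b, IER5, CCN1 and the ZFP36L1 row ENSDARG00000021443. With both libraries numbered 2 left out, 27 of the 36 rows had a positive log2 fold change, 9 were higher at an unadjusted p under 0.05, and the median log2 fold change was 0.26. BTG2 and BTG1 were the 2 rows past the adjusted threshold in that fit. Over the 16890 genes tested, the same fit had 1072 higher at an unadjusted p under 0.05 and a median log2 fold change of −0.0128. It called 106 of them higher and 32 lower at the adjusted threshold. The share of all genes with a positive log2 fold change was not counted for that fit.

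**Figure D4:**
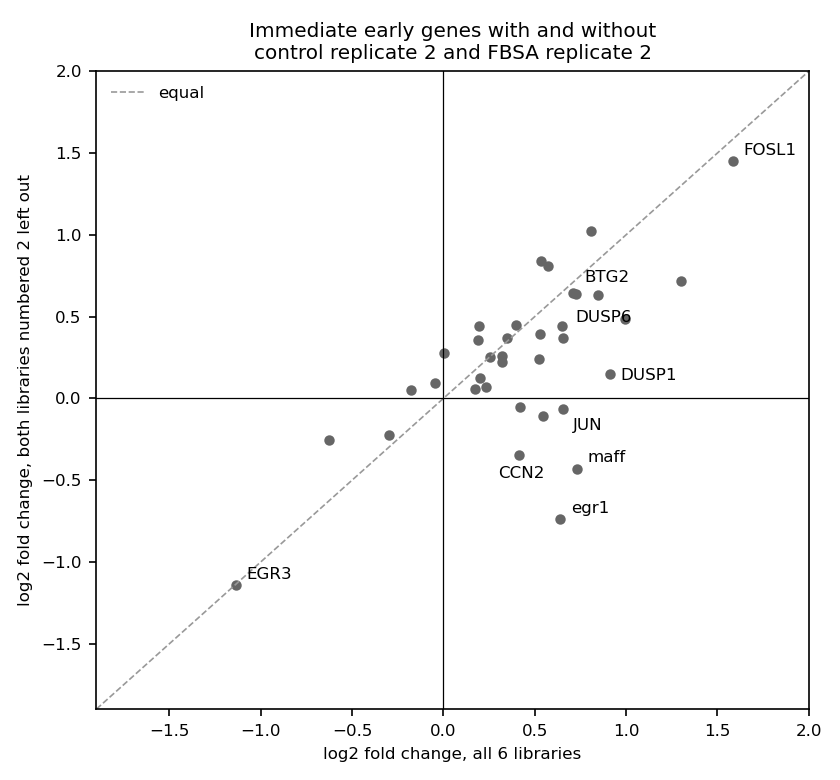
Log2 fold change (FBSA minus control) of each of the 36 tested rows in the fit on all 6 libraries (x axis) and in the fit with control replicate 2 and FBSA replicate 2 left out (y axis), with a dashed line for equal values. BTG2 and FOSL1 stay near the line, at 0.64 and 1.45 on the y axis, whereas JUN, CCN2, maff and egr1 lie below 0. In JUN, CCN2, maff and egr1 control replicate 2 was the lowest control and FBSA replicate 2 the highest FBSA library. Leaving out both must therefore lower their values.

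The spread between libraries of 1 group differed widely among the rows. Of the 26 tested rows that averaged at least 100 normalized counts, 19 had a within-group SD above the median of all 10304 such genes. The median SD of log2(normalized count + 1) was 0.36 over the 26 rows and 0.20 over those genes. It was lowest for BTG1, IER5 and mcl1a, at 0.09 to 0.10, and highest for maff (1.15), FOS (0.79), CCN2 (0.75) and NR4A1 (0.73). BTG2, with 0.17, was among the steadier rows. For a row such as FOS, with an SE of 0.40, the 95% interval of the log2 fold change ran from −0.34 to 1.40, which holds both 0 and the estimate for BTG2.

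The wider pathway was read from 4 lists of genes outside the set, and 0 of their members passed the test in either direction. Over all genes tested, 0.568% were called higher and 0.136% lower, and a count of 0 is near these shares. Of 27 tested genes upstream of the response (serum response factor, its partners, CREB and MAP kinase pathway genes), 2 were higher and 0 lower at an unadjusted p under 0.05, which is near the 7.34% higher and 6.25% lower over all genes tested, and the median log2 fold change was 0.06. The kinase gene RPS6KA3 (ENSDARG00000057927) had 59.5, 54.6 and 63.6 normalized counts in control and 122, 119 and 75.2 with FBSA (limma adjusted p = 0.255), and CREB1 (ENSDARG00000093420) a log2 fold change of 0.42 (adjusted p = 0.359). The other RPS6KA3 row, ENSDARG00000035556, was more counted, with means of 886 in control and 784 with FBSA (log2 fold change −0.18). So was the CREB1 paralogue creb1a, with means of 2656 and 2635 (log2 fold change −0.01). The list of feedback inhibitors held mostly inhibitors of receptor and MAP kinase signalling, and TOB genes as well. Among its 14 tested genes, 1 was higher and 1 lower at that level, again near those shares, with a median log2 fold change of 0.05. They were TOB1, an antiproliferative relative of BTG2 with a log2 fold change of 0.29, and SPRED3, an inhibitor of Ras signalling with −0.46 (limma adjusted p = 0.318 and 0.257).

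Paralogues and other early response genes were closer to the set, with 13 of 51 higher and 4 lower at an unadjusted p under 0.05, against 7.34% higher and 6.25% lower over all genes tested, and a median log2 fold change of 0.31. The lower count is near the share over all genes. The smallest p was that of RGS2, a regulator of G protein signalling, with 62.9, 69.98 and 90.9 normalized counts in control and 203, 259 and 132 with FBSA. All FBSA libraries of RGS2 lay above all controls, at 2.57-fold (log2 fold change 1.36 ± 0.28 SE, limma adjusted p = 0.0517). RGS2 passed with a pseudocount of 5, with robust moderation and without FBSA replicate 3, its lowest FBSA library. Leaving out FBSA replicate 3 must raise the log2 fold change of RGS2. The kinase gene PIM1 followed, with 2013, 2531 and 2322 normalized counts in control and 2765, 3419 and 3183 with FBSA (limma adjusted p = 0.141). The 4 lower genes, named after their values were seen, were ccn1l1 (log2 fold change −1.60), both NR4A2 rows (−0.63 for ENSDARG00000017007 and −0.49 for ENSDARG00000044532) and HOMER1 (−0.43), a synaptic scaffold gene, with limma adjusted p from 0.184 to 0.32. The counts of ccn1l1 were low, with means of 42.6 in control and 14.3 with FBSA. Its paralogue ccn1l2 had means of 205 and 249 (log2 fold change 0.27).

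The last list held genes reported downstream of AP-1, EGR or NPAS4 factors, and whether these factors act on them here was not tested. Of its 19 tested genes, 7 were higher and 1 lower at an unadjusted p under 0.05, against 7.34% and 6.25% over all genes tested. Their median log2 fold change was 0.29. The growth factor gene hbegfa had 603, 862 and 718 normalized counts in control and 842, 1441 and 1406 with FBSA (log2 fold change 0.73 ± 0.20 SE, limma adjusted p = 0.15). It passed without FBSA replicate 1, its lowest FBSA library and the one that overlapped with the controls. Leaving out that library must raise the log2 fold change. The lower gene, named after its value was seen, was STC1 (ENSDARG00000003303), which encodes stanniocalcin, with a log2 fold change of −1.15 (limma adjusted p = 0.192). The means of this row were 59.3 normalized counts in control and 26.0 with FBSA. The other STC1 row, ENSDARG00000058476, had means of 188 and 271 and a log2 fold change of 0.29 (limma adjusted p = 0.794).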

How the data were processed

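The authors deposited log2 values for 24462 genes in 6 columns, with a shared floor of 6.52. STAR, HTSeq, DESeq2 and the build GRCz11 are named, per the submitters' processing notes; versions, annotation and filters are not given in the sources used here. These are variance-stabilised values, and inverting the formula returned normalized counts. Multiplied by a size factor, 100.0% of them came within 0.1 of a whole read, and the inversion was checked on simulated reads. The design had assumed such normalized counts. The test was that of limma 3.58.1 under R 4.3.3, run on genes that reached 10 in 3 or more libraries. It was fitted on log2(normalized count + 1), with group as the only term, trend moderation and two-sided p-values. Benjamini-Hochberg adjustment was over 16890 genes, with a threshold of 0.05. The test was also tried on simulated counts with the same relative spread for every gene, which does not cover rows of wide spread. Fold changes on the scale of log2(normalized count + 1) understate the change of low genes.

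The labels name separate pools of embryos and no clutch, so a p-value here reflects only how these pools vary, which may be technical. Chi-square per degree of freedom between libraries was 10.1 to 52.3, so none was a copy of another. The members, lists and tests were chosen with earlier results of these data known. Of 24462 identifiers, 22817 had a symbol in the gene-name table. The named-gene rule took members past the threshold, those with an unadjusted p under 0.05 and the most counted member of each role, and in each of the 4 pathway lists the 2 smallest p-values; other members were added after their values were seen. One gene that the rule selects is not reported here. The 8 marker lists were neuron, skeletal muscle, leukocyte, endothelium, erythroid, heart, epidermis and lens. Alternatives covered the pseudocount, filter, scaling, deposited values, limma-voom, robust moderation, the replicate number as a block and libraries left out. Python 3.11.15 with pandas 2.3.3, numpy 2.4.6, scipy 1.17.1 and matplotlib 3.10.9 was used.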

Additional observations from a re-analysis of the deposited data

How the results depend on the processing

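The number of set rows past the threshold was 2 with a pseudocount of 5 or without a filter (BTG2 and DUSP6), 2 with limma-voom (BTG2 and FOSL1), 3 on the deposited log2 values or with robust moderation (BTG2, DUSP6 and FOSL1), 2 with both libraries numbered 2 left out (BTG2 and BTG1) and 1 under the other filter, scalings and pseudocount. Over all genes, 128 were called with a pseudocount of 5, 122 of 24462 without a filter, 115 with limma-voom and 132 on the deposited values. The calls over all genes numbered 144 with robust moderation, 138 with both libraries numbered 2 left out and 90 to 121 under the other filter, scalings and pseudocount. With 1 library left out at a time the number of set rows was 0 to 1, with FOSL1 in place of BTG2 without control replicate 3. Over all genes, 53 to 102 were called with 1 library left out. The fit with the replicate number as a replicate block called 0 rows (limma adjusted p of BTG2 0.0536) and 47 genes over the table against 119; libraries with the same number were not paired by the data, with correlations of their deviations of 0.02, −0.14 and −0.005. The median log2 fold change was 0.28 on the deposited values, which are compressed for low genes, 0.26 with both libraries numbered 2 left out and 0.31 to 0.52 with 1 library left out.

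Rows higher at an unadjusted p under 0.05 numbered 8 to 17 with 1 library left out, the lowest without FBSA replicate 2, and rows lower 0 to 1; limma-voom gave 1 lower row. These counts of set rows were chosen after seeing the data. Over the 16890 genes tested, the number higher at that level ran from 830, also without FBSA replicate 2, to 1322 without control replicate 1. Of the list of paralogues and other early response genes, 1 passed (RGS2) with a pseudocount of 5 and with robust moderation, and 0 to 1 with 1 library left out. The downstream list had 0 to 1. The log2 fold change of EGR2 was 0.002 and turned to −0.011 with a pseudocount of 5, −0.0062 with trimmed-mean scaling, −0.0076 on the deposited values, −0.0272 with scaling to library totals and −0.12 with limma-voom. With both libraries numbered 2 left out, the direction turned for JUN (−0.064), IER5L (−0.054), NR4A1 (−0.11), CCN2 (−0.35), maff (−0.43), egr1 (−0.74), klf2a (0.095) and JUND (0.05). With 1 library left out the range crossed 0 for EGR2 (−0.39 to 0.63), egr1 (−0.083 to 1.14), klf2a (−0.11 to 0.053), NPAS4 (−1.05 to 0.53), DUSP5 (−0.0092 to 0.33) and ier2b (−0.021 to 0.64). These were genes that had not passed the test, and the cause was not tested. Rows under about 50 normalized counts, such as NPAS4, EGR2, egr1 and egr4, carry more counting error. Its part in their spread was not tested.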
